A study of Saccharomyces cerevisiae with 18 samples.

Results

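The genes described here encode isoenzymes of glycolysis and alcoholic fermentation in Saccharomyces cerevisiae, chosen by gene symbol. They are HXK1 (YFR053C), HXK2 (YGL253W) and GLK1 (YCL040W) for hexose phosphorylation, and TDH1 (YJL052W) and TDH3 (YGR192C) for glyceraldehyde-3-phosphate dehydrogenase. Further down the pathway they are ENO1 (YGR254W) and ENO2 (YHR174W) for enolase, and PDC1 (YLR044C), PDC5 (YLR134W) and PDC6 (YGR087C) for pyruvate decarboxylase. These 10 genes were among 5449 S. cerevisiae genes read by the arrays, and each was read by 1 probe set of 5498. A further glyceraldehyde-3-phosphate dehydrogenase gene, TDH2, was matched to no probe set and was not analysed here.

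RNA came from cultures of BY4742, a haploid laboratory strain of mating type alpha, grown in YPD, a rich glucose medium. The groups were nonylphenol (NP, an alkylphenol used in making surfactants) at 5 mg/L, NP at 1 mg/L, and a control given only the ethanol in which NP was dissolved. Each was collected 180 and 120 min after NP or ethanol was added in mid-exponential growth, which made 6 groups. Each group had 3 single-colour Affymetrix arrays, described in the labels as biological replicates, for 18 in all.

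Yeast growing on glucose ferments most of it: sugar is phosphorylated, split and oxidised to pyruvate, and pyruvate decarboxylase and alcohol dehydrogenase then turn pyruvate into ethanol. Several steps are run by related enzymes, some of them nearly identical, and their genes differ in when they are used. At each step read here there is a main form during growth on glucose. Some of the others, such as HXK1 and ENO1, are held down by glucose, and others answer to other conditions, given with each gene below.

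Values are log2 signals from the deposited normalized table, and a difference of 1 on this scale is a doubling. S. cerevisiae probe sets had a median of 7.93, and the background, taken as the percentile 95 of probe sets for another yeast species, was 1.86. The strain's own markers fitted its label, since the alpha-cell genes SAG1 and STE3 had group means of 11.42 to 11.68 and 9.48 to 10.14, while URA3 and LYS2, both deleted in this strain, had 0.95 to 1.24 and 1.38 to 1.57. The a-cell gene STE2 had 4.32 to 4.60, above the background level. Probe sets differ in brightness for the same amount of RNA, so levels are compared between groups for 1 gene and never between genes. RNA was read in bulk, so fewer cells of a type and less RNA per cell cannot be told apart. How much signal a near-identical copy adds to another copy's probe set was not tested.

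At 5 mg/L more isoenzyme genes were called higher than lower against control at each time, although at 180 min 4 of 10 were not called. At 120 min 7 of 10 were higher by limma with Benjamini-Hochberg adjustment over all 5498 probe sets at a threshold of 0.05, and 0 were lower, where 25.4% of all probe sets were higher and 32.7% lower. At 180 min 5 of 10 were higher and 1, HXK1, was lower, where 27.1% of all probe sets were higher and 34.3% lower. The median log2 change of the isoenzyme genes was 0.12 at 180 min and 0.23 at 120 min, beside a median of -0.04 over all S. cerevisiae probe sets at each time. Arrays at 5 mg/L lay wholly above control for 7 of 10 members at 120 min and wholly below for 0. Over all probe sets these shares were 28.7% and 37.2%. At 180 min 6 members lay wholly above and 1 wholly below, where 30.4% and 39.6% of all probe sets did. HXK2, GLK1, PDC1, PDC5 and PDC6 were called higher at both times, TDH1 was called only at 120 min, and TDH3, ENO1 and ENO2 were called at neither.

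These directions are relative to the other probe sets of the same array. The 36 probe sets for the manufacturer's poly-A control transcripts were 0.24 (SE 0.24) higher at 5 mg/L than in control at 180 min, and 0.78 (SE 0.21) higher at 120 min. When each array was scaled on them, every change at 120 min dropped by 0.78, so that HXK1, HXK2, TDH1, PDC1, PDC5 and PDC6 turned to -0.44, -0.53, -0.26, -0.64, -0.58 and -0.06 and GLK1 kept 0.02. On that scale 0 members were higher and 5 lower at 120 min, and 0 were called at 180 min. The poly-A probe sets were dim, with means of 4.56 at 5 mg/L and 4.32 in control at 180 min, and 4.97 and 4.19 at 120 min. The median of S. cerevisiae probe sets was 7.93. Those with a control mean from 4 to 6 had median changes of 0.14 at 180 min and 0.15 at 120 min at 5 mg/L. The share of the poly-A difference that came with a dim level was not tested. Scaling on the poly-A mean also adds its own spread between arrays to every change. A call lost on that scale therefore does not show that a change is absent. Ratios between members within an array, given further on, do not depend on the scaling by a constant.

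**Figure D1:**
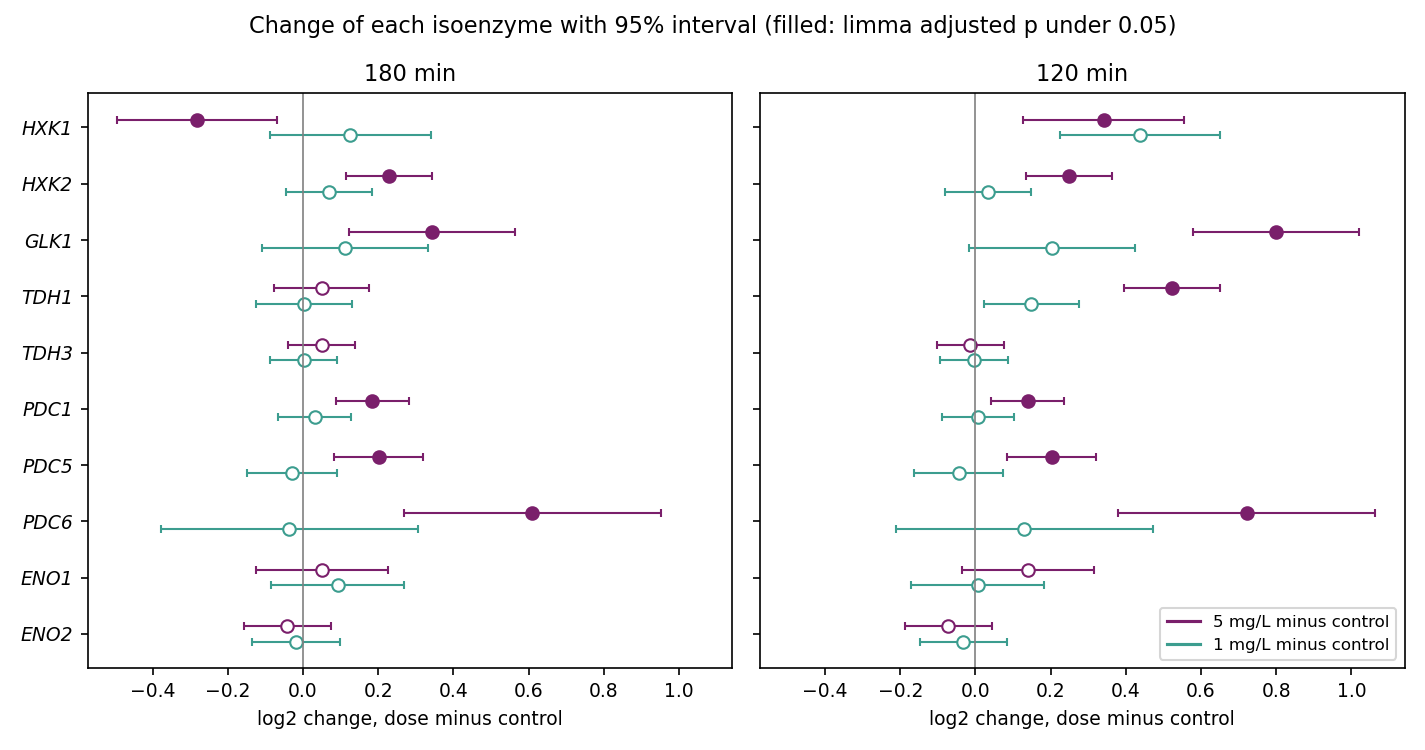
Log2 change of each of the 10 isoenzyme genes at 5 mg/L (purple) and 1 mg/L (green) against control, at 180 min (left) and 120 min (right), with the 95% interval of the limma fit; filled points passed the adjusted threshold of 0.05. Of the filled 5 mg/L points, 5 lie to the right of 0 and HXK1 to the left at 180 min, and 7 lie to the right at 120 min; scaled on the poly-A controls, 6 of those 7 would lie to the left of 0.

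GLK1, the glucokinase, which phosphorylates glucose but not fructose, had the largest estimated change among the members at 120 min. Its log2 signal was 10.97, 11.30 and 11.01 at 5 mg/L, against 10.17, 10.36 and 10.35 in control at 120 min. At 180 min it was 11.00, 11.17 and 11.14 at 5 mg/L, against 10.82, 10.80 and 10.66 in control. The groups did not overlap at either time. GLK1 was 1.74-fold higher at 120 min (log2 0.80, SE 0.10, limma adjusted p = 5.87e-06) and 1.27-fold higher at 180 min (log2 0.34, SE 0.10, adjusted p = 0.00918). In order of group means, both 5 mg/L groups came first and stood apart from the rest, and each of the other 4 groups overlapped its neighbour, from 1 mg/L at 180 min down to control at 120 min.

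HXK2, the main hexokinase on glucose, which also takes part in glucose repression, moved less but evenly. It had 12.08, 12.04 and 12.17 at 5 mg/L, against 11.88, 11.89 and 11.83 in control at 180 min. At 120 min it had 12.08, 12.14 and 12.06 at 5 mg/L, against 11.82, 11.83 and 11.88 in control. All 6 arrays at 5 mg/L were above all 6 control arrays. The rise was 1.17-fold at 180 min (log2 0.23, SE 0.05, limma adjusted p = 0.00157) and 1.19-fold at 120 min (log2 0.25, SE 0.05, adjusted p = 0.00089).

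HXK1, the hexokinase held down by glucose, was the one member that fell. At 180 min it had 10.96, 11.23 and 11.21 at 5 mg/L, against 11.49, 11.39 and 11.36 in control. Its values at 120 min were 11.00, 11.37 and 11.08 at 5 mg/L, against 10.71, 10.85 and 10.87 in control. The 5 mg/L arrays thus lay below control at 180 min and above control at 120 min, with no overlap at either time. The change was 1.22-fold lower at 180 min (log2 -0.28, SE 0.10, limma adjusted p = 0.0234) and 1.27-fold higher at 120 min (log2 0.34, SE 0.10, adjusted p = 0.00815).

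Both HXK1 calls rested on single arrays. The fall at 180 min was -0.24 without control replicate 1 (adjusted p = 0.0786) and -0.19 without 5 mg/L replicate 1 (adjusted p = 0.127), and over all adjusted p values without 1 array it ran from 0.0221 to 0.127. The rise at 120 min was 0.23 without 5 mg/L replicate 2 (adjusted p = 0.0566), with a range from 0.00427 to 0.0566. Adjusted over all probe sets of the table, the fall at 180 min had an adjusted p of 0.0566. In order of group means HXK1 was highest at 1 mg/L and in control at 180 min and lowest in control at 120 min, whose arrays lay below those of every other group.

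TDH1 encodes a glyceraldehyde-3-phosphate dehydrogenase used more in starved and stressed cells. It had 12.08, 12.17 and 11.97 at 5 mg/L, against 11.50, 11.64 and 11.50 in control at 120 min. At 180 min it had 12.04, 12.13 and 12.14 at 5 mg/L, against 12.07, 12.07 and 12.02 in control. The groups were apart at 120 min and overlapped at 180 min. The rise at 120 min was 1.44-fold (log2 0.52, SE 0.06, limma adjusted p = 1.39e-06), and at 180 min the difference was 0.05 (SE 0.06, adjusted p = 0.487, 95% interval -0.08 to 0.18). In order of group means, both 5 mg/L groups, 1 mg/L at 180 min and control at 180 min overlapped their neighbours, and 1 mg/L and control at 120 min lay apart below them.

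TDH3, the main form of the same enzyme on glucose, stayed within 0.07 across the 6 group means. It had 13.68, 13.65 and 13.74 at 5 mg/L, against 13.65, 13.63 and 13.65 in control at 180 min. The 120 min arrays gave 13.59, 13.65 and 13.63 at 5 mg/L, against 13.65, 13.63 and 13.64 in control. Its probe set was the brightest of all on 18 of 18 arrays, and 6 arrays shared the value 13.65, so its place left no room for a rise in rank. The differences were 0.05 (SE 0.04, limma adjusted p = 0.317) at 180 min and -0.01 (SE 0.04, adjusted p = 0.792) at 120 min.

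The array's own TDH1 control probe sets, placed towards the 3′ end, the middle and the 5′ end of the transcript, gave a second reading. At 120 min they were higher at 5 mg/L than in control by 0.47 (limma adjusted p = 5.23e-05), 0.77 (adjusted p = 0.000364) and 0.57 (adjusted p = 0.000304), adjusted over all probe sets of the table. At 180 min their differences were 0.01, 0.10 and 0.24, and none was called (adjusted p = 0.945, 0.667 and 0.0834). Another TDH1 control set, whose probes can match more than 1 transcript, differed by 0.05 at 180 min and 0.04 at 120 min. The 5′ minus 3′ difference of TDH1, a sign of RNA quality, averaged -0.27 at 5 mg/L against -0.51 in control at 180 min, and -0.34 at 5 mg/L against -0.44 in control at 120 min, and its part in these readings was not tested. The same difference of ACT1, the actin gene, averaged -0.71 at 5 mg/L against -0.88 in control at 180 min, and -0.69 at 5 mg/L against -0.71 in control at 120 min.

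ENO1, the enolase gene held down by glucose, and ENO2, the enolase gene raised by it, were called in no comparison of a dose with control. ENO1 had 12.36, 12.49 and 12.56 at 5 mg/L, against 12.50, 12.38 and 12.38 in control at 180 min. At 120 min the signal was 12.39, 12.62 and 12.31 at 5 mg/L, against 12.29, 12.27 and 12.33 in control. The groups overlapped at both times, with differences of 0.05 (SE 0.08, limma adjusted p = 0.615) at 180 min and 0.14 (SE 0.08, adjusted p = 0.161) at 120 min. Leaving out 1 array moved these to between 0.0048 and 0.11 at 180 min and between 0.05 and 0.20 at 120 min, lowest without 5 mg/L replicate 3 and without 5 mg/L replicate 2.

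ENO2 had 12.78, 12.79 and 12.90 at 5 mg/L, against 12.94, 12.82 and 12.83 in control at 180 min. For 120 min its values were 12.79, 12.86 and 12.76 at 5 mg/L, against 12.88, 12.85 and 12.90 in control. Its 6 group means spanned 0.07, and every group overlapped its neighbour in order. The differences were -0.04 (SE 0.06, limma adjusted p = 0.534, 95% interval -0.16 to 0.08) at 180 min and -0.07 (SE 0.06, adjusted p = 0.275, 95% interval -0.19 to 0.04) at 120 min.

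PDC1, the main pyruvate decarboxylase, was slightly higher at 5 mg/L. It had 13.20, 13.22 and 13.29 at 5 mg/L, against 13.01, 13.08 and 13.07 in control at 180 min. The signal at 120 min was 13.25, 13.19 and 13.21 at 5 mg/L, against 13.13, 13.03 and 13.06 in control. All arrays at 5 mg/L were above all control arrays. The rise was 1.14-fold at 180 min (log2 0.18, SE 0.05, limma adjusted p = 0.00234) and 1.10-fold at 120 min (log2 0.14, SE 0.05, adjusted p = 0.0155).

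The PDC1 call at 120 min was lost without control replicate 2 (0.12, adjusted p = 0.0701), without control replicate 3 (0.13, adjusted p = 0.0505) or without 5 mg/L replicate 1 (0.12, adjusted p = 0.0503), within a range of adjusted p from 0.0118 to 0.0701, and in a fit of the compared arrays alone (adjusted p = 0.0534). After quantile normalization of the S. cerevisiae probe sets PDC1 differed by 0.10 at 180 min (adjusted p = 0.0523) and 0.08 at 120 min (adjusted p = 0.160).

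PDC5, a second pyruvate decarboxylase that yeast raises when PDC1 is missing or thiamine is short, had 7.91, 7.99 and 8.001 at 5 mg/L, against 7.77, 7.73 and 7.80 in control at 180 min. In the 120 min groups it had 7.99, 8.06 and 7.83 at 5 mg/L, against 7.75, 7.76 and 7.76 in control. The groups did not overlap at either time. The rise was 1.15-fold at both times, with log2 0.20 (SE 0.06, limma adjusted p = 0.00536) at 180 min and log2 0.20 (SE 0.06, adjusted p = 0.00525) at 120 min.

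PDC6, a minor pyruvate decarboxylase whose protein is poor in sulfur amino acids and whose gene is raised when sulfur is short, was the dimmest probe set among the members, with array values from 3.39 to 4.77 beside the background level of 1.86. It had 4.29, 4.35 and 4.77 at 5 mg/L, against 3.71, 3.93 and 3.94 in control at 180 min. At 120 min the arrays read 4.35, 4.52 and 4.39 at 5 mg/L, against 3.55, 3.91 and 3.63 in control. No control array reached the lowest 5 mg/L array. The rise was 1.53-fold at 180 min (log2 0.61, SE 0.16, limma adjusted p = 0.00377) and 1.65-fold at 120 min (log2 0.72, SE 0.16, adjusted p = 0.00108).

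Dim probe sets as a whole also read higher at 5 mg/L. Among the 206 probe sets with a control mean from 2 to 4 at 180 min, the range that holds PDC6, the median change was 0.31 and the middle 50% ran from -0.01 to 0.65. At 120 min the median of 213 such probe sets was 0.45, with the middle 50% from 0.14 to 0.94, so PDC6 lay inside the middle 50% of its level range at both times. After quantile normalization of the S. cerevisiae probe sets PDC6 differed by 0.33 at 180 min (adjusted p = 0.0989) and by 0.27 at 120 min (adjusted p = 0.177), and was not called.

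**Figure D2:**
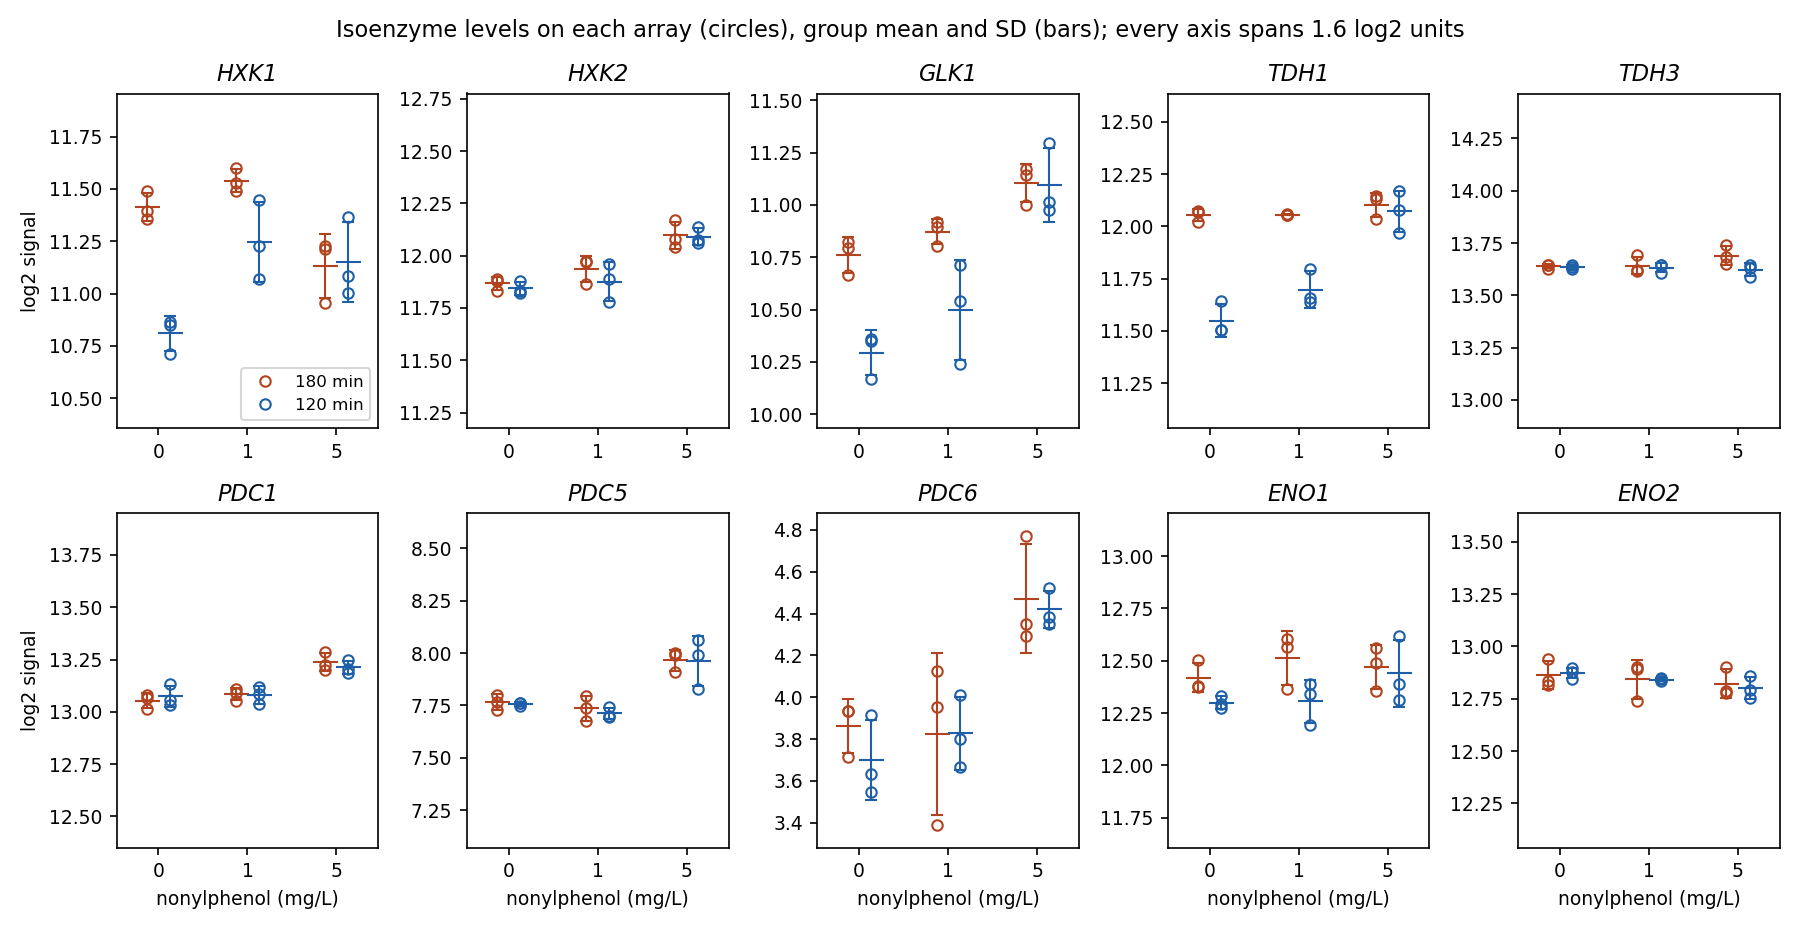
Log2 signal of the 10 isoenzyme genes on each array (circles), with group means and SD (bars, n = 3), by NP dose, at 180 min (red) and 120 min (blue). GLK1, TDH1 and HXK1 had higher control levels at 180 than at 120 min, while TDH3 and ENO2 stayed level; on the poly-A scale the 5 mg/L groups at 120 min lie 0.78 lower against control.

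At 1 mg/L no isoenzyme gene was called at either time by limma, where 0.109% of all probe sets were called at 180 min and 0.455% at 120 min. With an unadjusted p under 0.05, 0 of 10 members passed at 180 min and 2 passed at 120 min, HXK1 and TDH1, where 3.6% and 4.33% of all probe sets did. HXK1 had 11.07, 11.23 and 11.45 at 1 mg/L, against 10.71, 10.85 and 10.87 in control at 120 min. These groups did not overlap, where 5.2% of all probe sets lay wholly above control and 4.58% wholly below. The difference was 0.44 (SE 0.10, limma adjusted p = 0.072).

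That value for HXK1 was near the threshold. Its adjusted p was 0.0427 without 1 mg/L replicate 1 (log2 0.53), 0.0400 with the trend and robust settings of eBayes, 0.0452 after quantile normalization and 0.000514 with array weights. TDH1 had 11.64, 11.80 and 11.66 at 1 mg/L, against 11.50, 11.64 and 11.50 in control at 120 min, a difference of 0.15 (SE 0.06, limma adjusted p = 0.875). The TDH1 groups overlapped. In this comparison all 3 pairs of same-numbered arrays deviated together, and by replicate number TDH1 was 0.14, 0.16 and 0.15 higher and HXK1 0.36, 0.38 and 0.58 higher at 1 mg/L than in control. With the replicate number as a block in a limma fit of these 6 arrays, chosen after seeing the data, neither TDH1 (SE 0.04, adjusted p = 0.411) nor HXK1 (SE 0.06, adjusted p = 0.0878) was called, and 10 of all probe sets were called, against 25 in the fit of all 18 arrays without the block.

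The remaining differences at 1 mg/L were small. At 180 min the 10 members ran from -0.04 to 0.13 on the log2 scale, with HXK1 highest and PDC6 lowest. At 120 min, apart from HXK1, they ran up to 0.20 in GLK1 and down to -0.04 in PDC5. At 180 min the 95% interval was -0.07 to 0.13 for PDC1, and wide for PDC6, at -0.38 to 0.31.

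Set against 1 mg/L, 5 mg/L gave 4 of 10 members higher and 1 lower at 180 min, where 26.7% of all probe sets were higher and 32.7% lower. At 120 min 6 were higher and 0 lower, where 24.3% of all were higher and 33.1% lower. HXK2, PDC1, PDC5 and PDC6 were higher at both times, and GLK1 and TDH1 at 120 min. HXK1 at 180 min was 1.33-fold lower at 5 than at 1 mg/L (log2 -0.41, SE 0.10, limma adjusted p = 0.00245), and at 120 min it differed by -0.10 (SE 0.10, adjusted p = 0.43). On the poly-A scale 0 members were higher and 7 lower at 120 min, and none was called at 180 min. GLK1 at 180 min was 0.23 higher (SE 0.10, adjusted p = 0.0656), with 11.00, 11.17 and 11.14 at 5 mg/L against 10.81, 10.89 and 10.92 at 1 mg/L.

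Some of these calls depended on single arrays. HXK2 at 180 min (log2 0.16, adjusted p = 0.0172) was 0.13 without 1 mg/L replicate 2 (adjusted p = 0.0752) or without 5 mg/L replicate 3 (adjusted p = 0.0862). PDC1 at 120 min (log2 0.13, adjusted p = 0.0207) was 0.11 without 1 mg/L replicate 2 (adjusted p = 0.0850) and 0.12 without 5 mg/L replicate 1 (adjusted p = 0.0632). GLK1 at 180 min passed without 5 mg/L replicate 1 (log2 0.28, adjusted p = 0.0496).

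In control cultures HXK1, GLK1 and TDH1 were higher at 180 than at 120 min, 3 of 10 members, where 11.1% of all probe sets were higher and 12.1% lower. HXK1 was 1.52-fold higher (log2 0.60, SE 0.10, limma adjusted p = 0.000543), with 11.49, 11.39 and 11.36 at 180 min against 10.71, 10.85 and 10.87 at 120 min. GLK1 was 1.38-fold higher (log2 0.47, SE 0.10, adjusted p = 0.00469), with 10.82, 10.80 and 10.66 at 180 min against 10.17, 10.36 and 10.35 at 120 min. TDH1 was 1.42-fold higher (log2 0.50, SE 0.06, adjusted p = 3.56e-05), with 12.07, 12.07 and 12.02 at 180 min against 11.50, 11.64 and 11.50 at 120 min.

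For each of these genes the arrays of both times lay apart. The same held for 27.4% of all probe sets with 180 min higher and for 25.9% with 180 min lower. The other 7 members differed by -0.02 to 0.16 between the control times. ENO1 arrays did not overlap between the times either, with a difference of 0.12 (SE 0.08, limma adjusted p = 0.298). On the poly-A scale, which adds the spread of the poly-A mean, the time differences of HXK1, GLK1 and TDH1 in control were 0.47, 0.33 and 0.37. They kept their sign and were not called there (limma adjusted p = 0.998).

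At 1 mg/L GLK1 and TDH1 were higher at 180 than at 120 min, 2 of 10 members, where 3.46% of all probe sets were higher and 6.75% lower. TDH1 differed by 0.36 (SE 0.06, limma adjusted p = 0.00177), with 12.05, 12.05 and 12.06 at 180 min against 11.64, 11.80 and 11.66 at 120 min. GLK1 differed by 0.37 (SE 0.10, adjusted p = 0.0327), with 10.81, 10.89 and 10.92 at 180 min against 10.24, 10.54 and 10.71 at 120 min. Its 120 min arrays were the most spread of any GLK1 group, with an SD of 0.24. HXK1 differed by 0.29 (SE 0.10, adjusted p = 0.0744). GLK1 lost its call without 1 mg/L replicate 1 of 120 min (0.25, adjusted p = 0.126), and without replicate 2 (0.36, adjusted p = 0.0772) or 3 of 180 min (0.35, adjusted p = 0.110). HXK1 gained a call without replicate 3 of 120 min (0.39, adjusted p = 0.0387). In a fit of the compared arrays alone neither GLK1 (adjusted p = 0.159) nor TDH1 (adjusted p = 0.0700) was called.

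At 5 mg/L no member differed between 180 and 120 min by limma, where 0.891% of all probe sets did, and 0 members had an unadjusted p under 0.05, where 17% of all probe sets did. The differences there ran from -0.02 in HXK1 to 0.07 in TDH3. TDH1 averaged 12.10 ± 0.06 at 180 min and 12.07 ± 0.10 at 120 min at 5 mg/L (SD, n = 3 each), beside 12.05 ± 0.03 in control at 180 min. GLK1 averaged 11.10 ± 0.09 at 180 min and 11.09 ± 0.18 at 120 min at 5 mg/L, beside 10.76 ± 0.09 in control at 180 min.

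The effect of 5 mg/L differed between the times for the same 3 genes, as tested by the interaction of dose and time in limma. It was lower at 180 than at 120 min in 3 of 10 members and higher in 0, where 6.46% of all probe sets had a lower and 8.53% a higher effect. HXK1 differed by -0.62 (SE 0.14, adjusted p = 0.0097), from effects of -0.28 at 180 min and 0.34 at 120 min. TDH1 differed by -0.47 (SE 0.08, adjusted p = 0.00274), from 0.05 at 180 min and 0.52 at 120 min. The array's TDH1 control probe sets differed by -0.46 at the 3′ end, -0.67 in the middle and -0.33 at the 5′ end. Of these only the 3′ set was called (limma adjusted p = 0.018, 0.0745 and 0.227, adjusted over all probe sets of the table).

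GLK1 differed by -0.46 (SE 0.15, adjusted p = 0.0471), from 0.34 at 180 min and 0.80 at 120 min. This call was lost when any 1 of the 12 arrays was left out, with values from -0.52 to -0.36 and adjusted p from 0.0507 to 0.119, and when p-values were adjusted over all probe sets of the table (adjusted p = 0.123). For HXK2, PDC1, PDC5 and PDC6 the difference between the times was -0.02, 0.05, -0.00 and -0.11, and none was called. Scaled on the poly-A controls, the HXK1, GLK1 and TDH1 values were -0.08, 0.09 and 0.07 and were not called. For 1 mg/L no probe set was called, and 1 of 10 members, HXK1, had an unadjusted p under 0.05 (-0.31, SE 0.14), where 2.53% of all probe sets did.

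Ratios between isoenzymes of 1 step were taken within each array, which removes any factor common to the array. Only a change of the ratio between groups is read, since the probe sets differ in brightness. Each dose was compared with control over both times by an exact two-sided permutation test within time, with 400 orders, a smallest p of 0.005 and adjustment over 16 tests. Both doses were set against the same control arrays. At 5 mg/L 5 of 8 ratios passed, and at 1 mg/L 1 of 8. Ratios of the hexose kinases share genes with one another, as do those of the pyruvate decarboxylases, so the tests are not separate. The share of other probe-set pairs that would pass was not determined. At 5 mg/L 61.4% of all probe sets were called against control at 180 min and 58.1% at 120 min, so the count is no result about isoenzymes as a group.

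The ratio of HXK1 to GLK1 separated the groups most cleanly. On the log2 scale it was -0.04, 0.06 and 0.07 at 5 mg/L, against 0.60, 0.66 and 0.69 in control at 180 min. At 120 min it was 0.03, 0.07 and 0.07 at 5 mg/L, against 0.49, 0.51 and 0.54 in control. HXK1 thus lost signal relative to GLK1 on 6 of 6 arrays at 5 mg/L, by -0.63 at 180 min and -0.46 at 120 min. Over both times the ratio was 1.46-fold lower (log2 -0.54, SE 0.03, exact permutation p = 0.005, adjusted p = 0.02).

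GLK1 gained on HXK2 by 0.33 (SE 0.06, exact permutation p = 0.01, adjusted p = 0.0267), with 0.11 at 180 min and 0.55 at 120 min. The adjusted p was 0.0640 without control replicate 2 (0.34) and 0.0571 without control replicate 3 (0.32) of 180 min, and 0.0533 without 5 mg/L replicate 2 of 180 min (0.30). HXK1 to HXK2 had opposite signs at the 2 times, -0.51 at 180 min and 0.09 at 120 min, and did not pass over both (-0.21, exact permutation p = 0.11, adjusted p = 0.153). At 180 min it was -1.12, -0.96 and -0.82 at 5 mg/L, against -0.49, -0.47 and -0.39 in control.

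TDH1 to TDH3 was 0.54 higher at 5 mg/L than in control at 120 min, and over both times 0.27 higher, which missed the threshold (SE 0.04, exact permutation p = 0.055, adjusted p = 0.0978). At 180 min the group mean of this ratio was -1.59 at each dose and in control. TDH3 was the brightest probe set on 18 of 18 arrays and hardly varied, so the ratio nearly restates TDH1 alone (0.52 at 120 min and 0.05 at 180 min). ENO1 to ENO2 was higher at 5 mg/L by 0.15 (SE 0.04, exact permutation p = 0.005, adjusted p = 0.02), although neither gene was called alone. It was -0.42, -0.34 and -0.30 at 5 mg/L, against -0.45, -0.44 and -0.44 in control at 180 min. At 120 min it was -0.44, -0.40 and -0.24 at 5 mg/L, against -0.58, -0.57 and -0.56 in control, so that 6 of 6 arrays were above every control array of their time. The low dose matched this at 180 min, with 0.11 at 1 mg/L beside 0.092 at 5 mg/L. At 120 min the differences were 0.04 at 1 mg/L and 0.21 at 5 mg/L.

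Among the pyruvate decarboxylases PDC6 gained on both others, but dim probe sets as a whole gained on brighter ones at 5 mg/L. Probe sets with a control mean from 2 to 4, as for PDC6, had median changes of 0.31 at 180 min and 0.45 at 120 min. From 6 to 8, as for PDC5, the medians were -0.05 and -0.04, and from 12 to 14, as for PDC1, -0.10 at each time. A ratio within an array does not remove this trend, and its share in the PDC6 gain was not tested. PDC6 to PDC1 rose by 0.50 (SE 0.10, exact permutation p = 0.005, adjusted p = 0.02) and PDC6 to PDC5 by 0.46 (SE 0.10, exact permutation p = 0.005, adjusted p = 0.02), each on 6 of 6 arrays. PDC5 to PDC1 differed by 0.04 (SE 0.04, exact permutation p = 0.415, adjusted p = 0.474). After quantile normalization PDC6 to PDC1 differed by 0.21 (adjusted p = 0.116) and PDC6 to PDC5 by 0.07 (adjusted p = 0.623), neither of which passed, while PDC5 to PDC1 passed with 0.14 (adjusted p = 0.032).

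At 1 mg/L HXK1 gained on HXK2 by 0.23 (SE 0.04, exact permutation p = 0.01, adjusted p = 0.0267), with 0.06 at 180 min and 0.41 at 120 min. The ratio was -0.71, -0.66 and -0.51 at 1 mg/L, against -1.11, -1.01 and -0.98 in control at 120 min. It lost the call without control replicate 2 (0.22, adjusted p = 0.0667) or 3 (0.23, adjusted p = 0.0571) or 1 mg/L replicate 3 of 180 min (0.22, adjusted p = 0.0533). The other 7 ratios at 1 mg/L ran from -0.06 to 0.12. Of these, HXK1 to GLK1 was 0.12 (exact permutation p = 0.04, adjusted p = 0.0914) and passed without 1 mg/L replicate 2 of 180 min (0.14, adjusted p = 0.0457), and ENO1 to ENO2 was 0.07 (adjusted p = 0.0978) and passed without 1 mg/L replicate 1 of 120 min (0.10, adjusted p = 0.016).

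**Figure D3:**
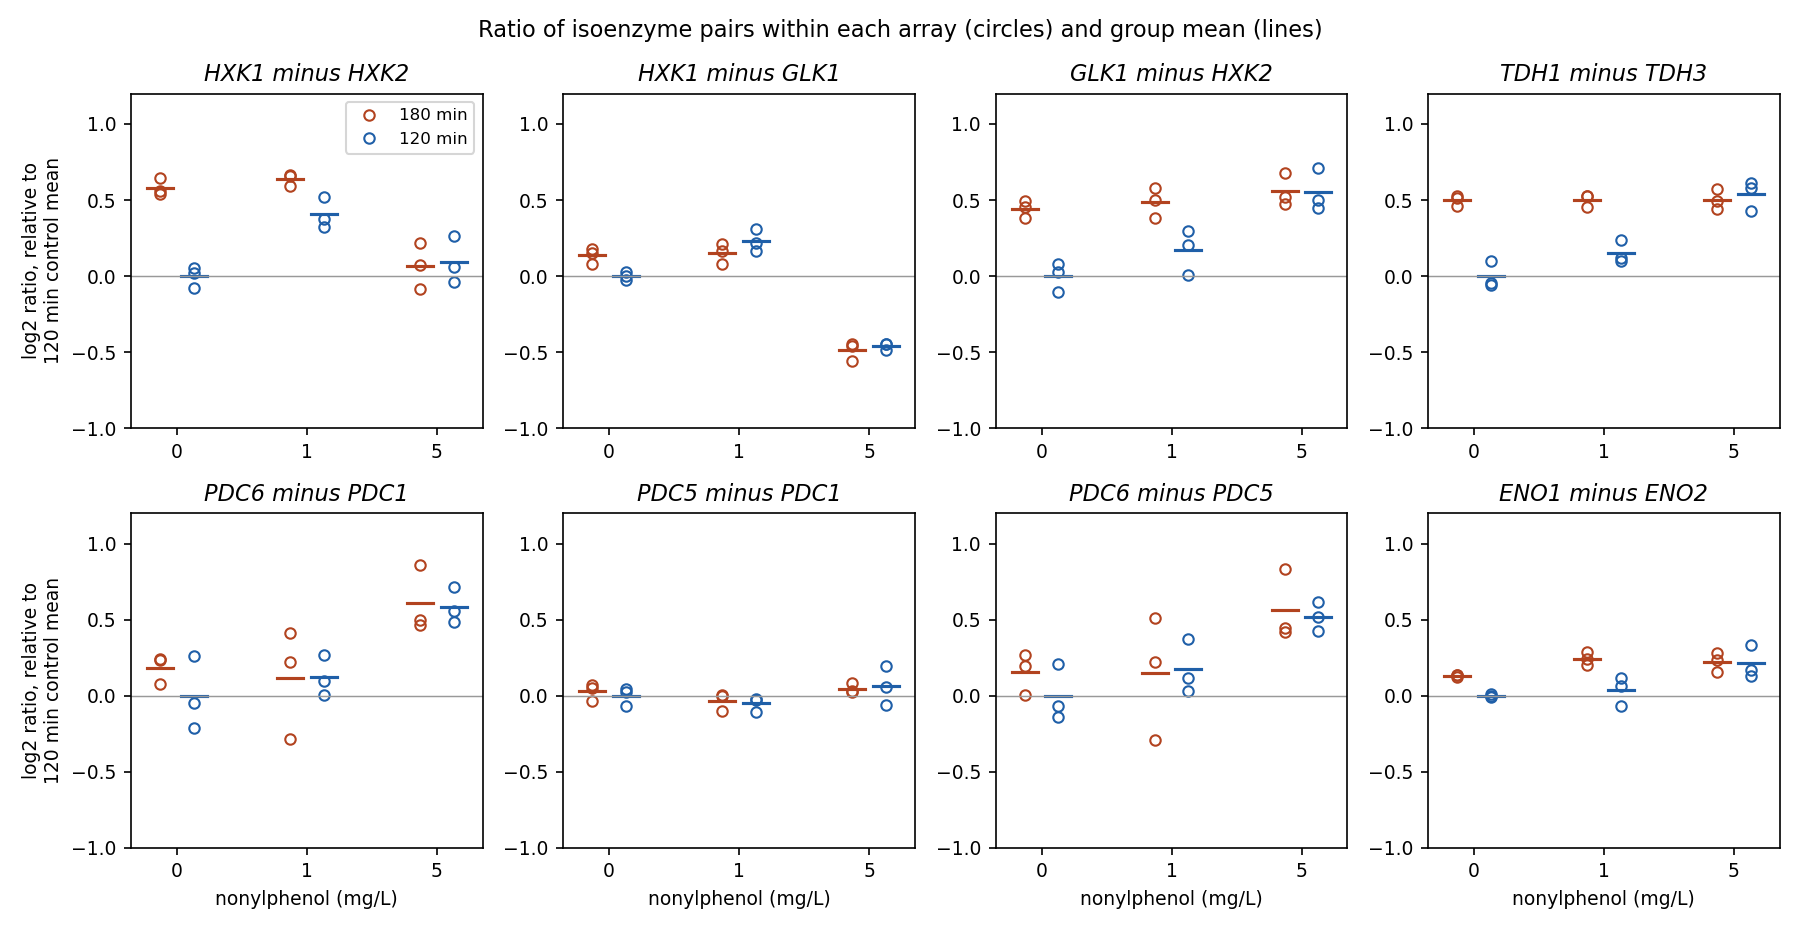
Log2 ratio of each isoenzyme pair within an array, relative to the mean of the 120 min control, by NP dose; circles are arrays and lines are group means, at 180 min (red) and 120 min (blue). HXK1 minus GLK1 falls on all 6 arrays at 5 mg/L. PDC6 rises against PDC1 and PDC5 on all 6, where dim probe sets as a whole also rose. TDH1 minus TDH3, which nearly restates TDH1, lies above control at 120 min, although the difference over both times (0.27) missed the threshold.

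The rest of the glycolytic list, with 14 of 15 genes measured, had 7 higher and 1 lower at 180 min and 7 higher and 0 lower at 120 min at 5 mg/L against control, where 27.1% and 25.4% of all probe sets were higher and 34.3% and 32.7% lower at these times. Its median log2 change was 0.13 at each time, beside -0.04 over all probe sets. EMI2, a gene similar to GLK1, rose by 0.79 at 180 min and by 1.32 at 120 min. PFK26, which makes the activator of phosphofructokinase, rose by 0.62 and 0.86 at these times, and PYK2, the pyruvate kinase held down by glucose, by 0.48 and 0.49. PGI1, the phosphoglucose isomerase that follows the hexokinases, rose by 0.34 and 0.27.

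GPM2, a relative of phosphoglycerate mutase with no known activity in the cell, was 0.93 higher at 120 min, while at 180 min its difference was 0.06 (limma adjusted p = 0.416). GPM1, the active phosphoglycerate mutase, fell by 0.17 on the log2 scale at 180 min (adjusted p = 0.0035), and at 120 min its difference was -0.04 (adjusted p = 0.491). The single-form enzymes FBA1 and TPI1 and the main pyruvate kinase CDC19 were called at neither time, with values of 0.00, -0.09 and 0.05 at 180 min and -0.01, -0.04 and -0.01 at 120 min. The effect of 5 mg/L was lower at 180 than at 120 min also in EMI2 (-0.53), PFK26 (-0.24), GPM2 (-0.88) and GPM3 (-0.30), 4 of 14 genes, where 6.46% of all probe sets had a lower effect.

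Among 15 genes of fermentation and acetaldehyde use, 5 were higher and 1 lower at 180 min and 8 higher and 2 lower at 120 min at 5 mg/L, with medians of 0.04 and 0.20. At 180 min the share of higher genes was near the 27.1% of all probe sets, and at 120 min 25.4% of all were higher. Of all probe sets 34.3% were lower at 180 min and 32.7% at 120 min. The aldehyde dehydrogenases differed in direction: ALD6, the main cytosolic form, rose by 1.23 at 180 min and 0.81 at 120 min, ALD4, the main mitochondrial form, rose by 0.98 and 1.10, and ALD5, another mitochondrial form, fell by 0.52 and 0.60. ACS1, an acetyl-CoA synthetase held down by glucose, rose by 0.43 and 0.44. ADH5 rose by 0.26 and 0.55, and ADH1, which makes most of the ethanol, differed by 0.04 and 0.05 and was called at neither time.

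**Figure D4:**
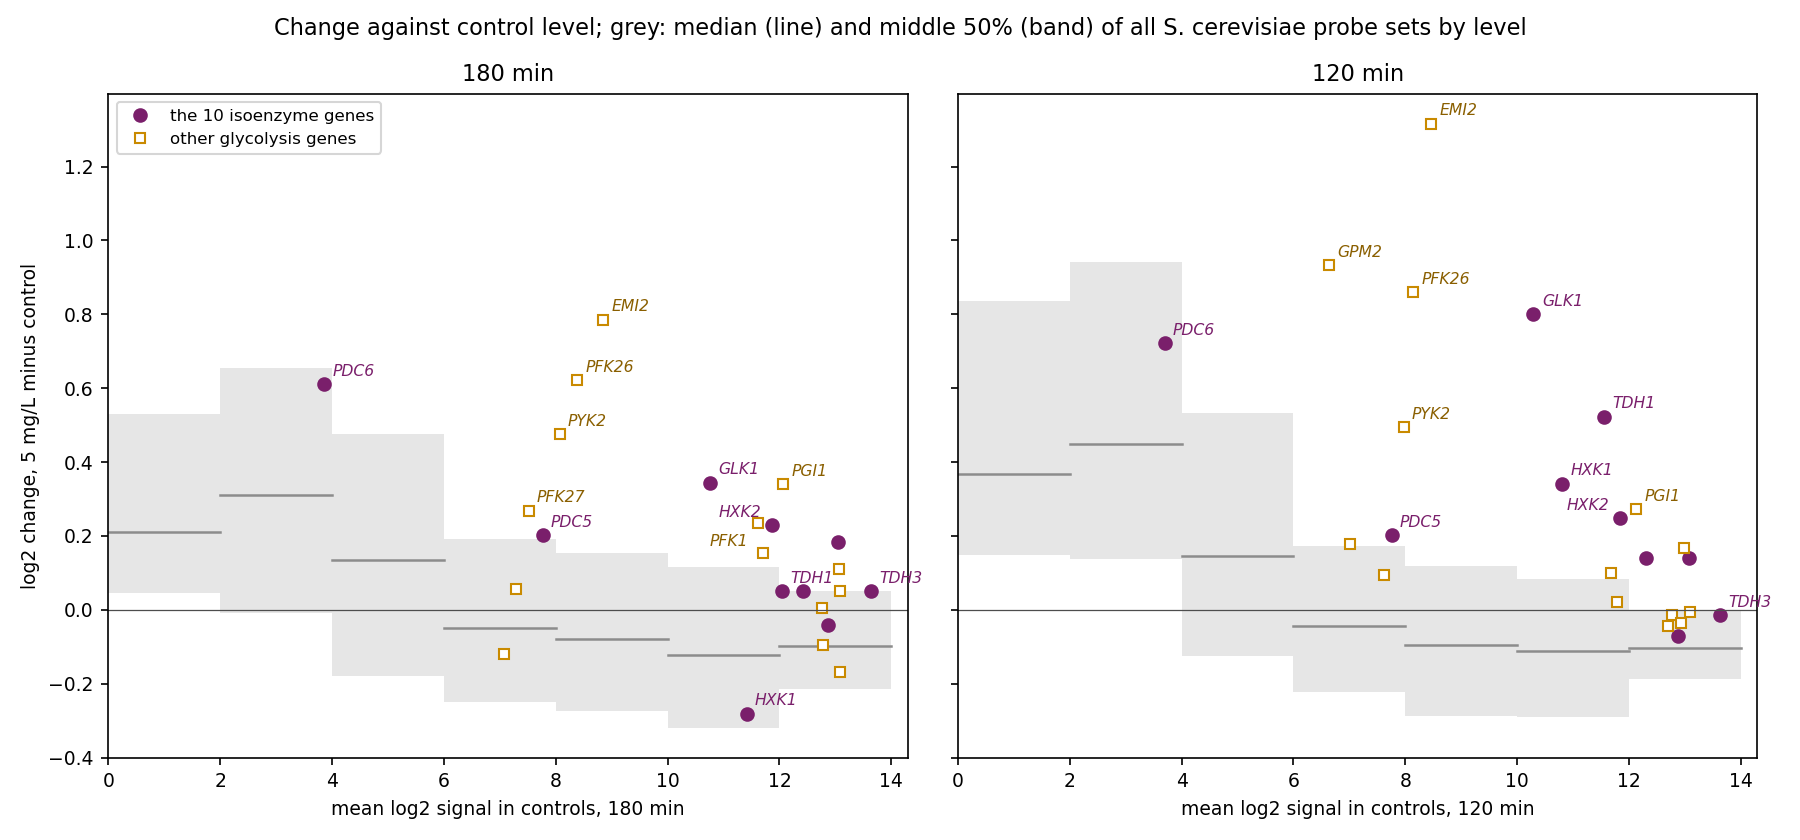
Log2 change at 5 mg/L minus control against the mean log2 signal in control, at 180 min (left) and 120 min (right), for the 10 isoenzyme genes (filled circles) and other glycolytic genes (open squares); grey lines and bands are the median and the middle 50% of all S. cerevisiae probe sets in each level range. PDC6 lies inside the band at both times. GLK1, HXK2, PDC1 and, narrowly, PDC5 lie above the band of their own level at both times. On the poly-A scale every point at 120 min is 0.78 lower.

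Regulatory and nutrient lists were read beside the isoenzymes at 5 mg/L against control, where 27.1% of all probe sets were higher and 34.3% lower at 180 min, and 25.4% higher and 32.7% lower at 120 min. Of 11 measured transcription factors of glycolytic genes, 7 were higher and 1 lower at 180 min and 5 higher and 2 lower at 120 min, with medians of 0.23 and 0.03. TYE7, an activator of glycolytic genes, rose by 0.83 at 180 min and 0.76 at 120 min, and RAP1, which binds many glycolytic promoters, rose by 0.67 and 0.54. ABF1 rose by 0.71 at 180 min. THI3, a regulator tied to thiamine that is related to the pyruvate decarboxylases, fell by 0.66 and 0.33.

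Of 19 genes of glucose repression and signalling, 5 were higher and 8 lower at 180 min and 3 higher and 9 lower at 120 min, with medians of -0.01 and -0.13. At 180 min the share of higher genes was near the 27.1% of all probe sets, while 34.3% of all were lower. The repressor genes NRG2 and MIG2 rose by 1.17 and 0.95 at 180 min and by 1.35 and 0.67 at 120 min, and MIG3 rose by 0.99 at 180 min. GAL83, a subunit of the Snf1 kinase complex, fell by 0.58 at 180 min and 0.52 at 120 min, and MTH1, which helps repress hexose transporter genes, fell by 0.48 at 120 min.

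Of 13 measured genes of thiamine synthesis and uptake, 8 were higher and 2 lower at 180 min and 7 higher and 2 lower at 120 min, where 27.1% and 25.4% of all probe sets were higher, with medians of 0.20 and 0.32. THI4, which makes the thiazole part of thiamine, rose by 0.91 and 1.13, THI13, one of several near-identical copies whose signals may mix, rose by 0.53 and 0.74, and PHO3, an acid phosphatase that frees thiamine, fell by 0.63 at 120 min. Of 12 genes of sulfate assimilation, 4 were higher and 0 lower at 180 min and 8 higher and 0 lower at 120 min, with medians of 0.19 and 0.36; at 180 min the share of higher genes was near the 27.1% of all probe sets, and at 120 min 25.4% of all were higher. MET14, the adenylylsulfate kinase, rose by 0.42 and 0.50, and MET3, the ATP sulfurylase, by 0.32 and 0.53. SUL1, a sulfate permease, averaged 2.89 at 5 mg/L against 1.59 in control at 120 min, where the control lay below the background level of 1.86, so no size of change is given. Whether these lists moved with PDC5 or PDC6 was not tested.

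The genes most like each member over the 18 arrays, by Pearson's r as a description, are named next. The arrays share dose and time, so r includes the pattern of the groups. PGM2, the main phosphoglucomutase, was most like GLK1 (r = 0.972), followed by APE1 (r = 0.963) and MCR1 (r = 0.947). PGM2 differed by 0.49 at 180 min and 0.90 at 120 min at 5 mg/L, and GLK1 by 0.34 and 0.80. STF2 (r = 0.968), GPP2 (r = 0.942) and YKL091C (r = 0.936) were most like TDH1, and STF2 differed by 0.10 at 180 min and 0.88 at 120 min.

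GPH1, the glycogen phosphorylase, was most like HXK1 (r = 0.880), before HFD1 (r = 0.875) and SDH1 (r = 0.864), and it too differed in sign between the times, by -0.15 at 180 min and 0.54 at 120 min. HXK2 had YIM1 (r = 0.970), SUR1 (r = 0.964) and POM33 (r = 0.961). PDC1 had SRC1 (r = 0.937), MOH1 (r = 0.930) and YMD8 (r = 0.925), and PDC5 had PYC1, a pyruvate carboxylase (r = 0.916), UBI4 (r = 0.915) and TMT1 (r = 0.913). PDC6 had YNL146W (r = 0.915), SET4 (r = 0.911) and ATG3 (r = 0.901).

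For the enolases the nearest genes were NDI1 (r = 0.932), DNM1 (r = 0.875) and ATP14 (r = 0.867) for ENO1, and VPS1 (r = 0.914), NVJ2 (r = 0.855) and CSE2 (r = 0.850) for ENO2. TDH3, which hardly varied, had the lowest values, with PPH22 (r = 0.782), MRL1 (r = 0.779) and YLR297W (r = 0.765).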

How the data were processed

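The deposited values, 1 per probe set and array, were log2 signals made by the authors with RMA, which corrects background, normalizes arrays to one distribution and summarises probes; the submitters' processing notes list RMA, affy and limma, and their versions are not given in the sources used here. That their log base is 2 was read from the range of values, 0.41 to 13.74. Gene names came from the platform annotation, updated through the RefSeq gene table, and 1747 probe sets for another yeast species gave the background level. Each of the 10 member symbols matched 1 probe set.

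A group-means model over 18 arrays was fitted with limma 3.58.1 in R 4.3.3 (eBayes without trend or robust), with Benjamini-Hochberg adjustment over 5498 S. cerevisiae probe sets and a threshold of 0.05. The SE of a change uses 1 spread per probe set, pooled over all groups. Ratios within arrays were tested by exact permutation within time in Python 3.11.15 with numpy 2.4.6. Both tests were tested on simulated data. The number of arrays limits the precision, and p-values reflect only how far these arrays spread.

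The members, pairs, lists and tests were chosen with earlier results of these data known. All members were named, from each list up to 4 called genes with the smallest p at each time at 5 mg/L, any gene of the glycolysis and fermentation lists, and the 3 genes most correlated with each member. Arrays of 1 group correlated at 0.994 to 0.999 and no pair was identical. Same-numbered arrays of different groups had residual correlations from -0.455 to 0.518, over 0.1 in 18 of 45 pairs. All 3 were over 0.1 in 1 of 15 pairs of groups, 1 mg/L and control at 120 min, where a blocked fit was added; elsewhere the numbers were not read as pairs. Alternatives were other fits, scalings and filters, and leaving out each array.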

Additional observations from a re-analysis of the deposited data

Results flagged for a closer look

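The effect of 5 mg/L against control differed between the times by an interaction test in limma for 3 genes, as 180 min minus 120 min on the log2 scale: HXK1 by -0.62, TDH1 by -0.47 and GLK1 by -0.46. In control these 3 genes were higher at 180 than at 120 min by 0.60, 0.50 and 0.47, while at 5 mg/L they differed by -0.02, 0.03 and 0.01. The interaction is the time difference at 5 mg/L minus that in control, so on the deposited scale nearly all of it is the change in control. Why the control levels moved was not tested. On the poly-A scale the HXK1, TDH1 and GLK1 values were -0.08, 0.07 and 0.09, and none was called.

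The manufacturer's TDH1 control probe sets, which entered no count of the members, were higher at 5 mg/L than in control at 120 min, by 0.47 at the 3′ end, 0.57 at the 5′ end and 0.77 in the middle of the transcript. In the interaction test their values were -0.46, -0.33 and -0.67 in that order, and only the 3′ set was called.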

How the results depend on the processing

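Without a filter on dim probe sets or with one, with median centring, and with the replicate block, no count of called isoenzyme genes moved by more than 1.5 times; the block made 1 further call, GLK1 at 5 against 1 mg/L at 180 min (limma adjusted p = 0.0347). In the ratio tests the replicate block kept the values (HXK1/GLK1 -0.54, GLK1/HXK2 0.33, PDC6/PDC1 0.50, PDC6/PDC5 0.46, ENO1/ENO2 0.15, and at 1 mg/L HXK1/HXK2 0.23), but its smallest exact p is 0.0312 and adjusted p was 0.125 for each. Medians of arrays gave -0.53, 0.27, 0.44, 0.42, 0.13 and 0.22 for the same ratios, with adjusted p of 0.0533. Each time alone, where the smallest p is 0.1, gave -0.63, 0.11, 0.43, 0.41, 0.092 and 0.058 at 180 min and -0.46, 0.55, 0.58, 0.52, 0.21 and 0.41 at 120 min.

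Quantile normalization gave 3 members higher at 5 mg/L against control at 180 min, 2 at 5 against 1 mg/L at 180 min and 1 at 1 mg/L at 120 min, and PDC5/PDC1 passed (0.14), and PDC6/PDC1 (0.21) and PDC6/PDC5 (0.065) did not. It holds TDH3, the highest probe set on 18 of 18 arrays, at 1 value, so TDH1/TDH3 there (0.34 at 5 mg/L and 0.10 at 1 mg/L) restates TDH1 alone and tests no ratio. Array weights gave 1 member lower at 5 mg/L at 120 min (ENO2), 3 higher at 1 mg/L at 120 min and 5 higher over time at 1 mg/L, where PDC6 turned to 0.35. Trend and robust settings gave 1 higher at 1 mg/L at 120 min. The arrays of the compared groups alone gave 0 higher over time at 1 mg/L, and all probe sets of the table gave 1 there and 0 lower at 5 mg/L at 180 min.

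Poly-A scaling gave 0 higher and 5 lower at 5 mg/L against control at 120 min and 0 and 0 at 180 min, 0 higher and 7 lower at 5 against 1 mg/L at 120 min and 0 and 0 at 180 min, 0 higher over time in control and at 1 mg/L, and 0 lower for the effect of 5 mg/L between times. At 120 min HXK1, HXK2, TDH1, PDC1, PDC5, PDC6 and ENO1 turned to -0.44, -0.53, -0.26, -0.64, -0.58, -0.060 and -0.64 against control. Against 1 mg/L HXK2, GLK1, TDH1, PDC1, PDC5, PDC6 and ENO1 turned to -0.62, -0.24, -0.46, -0.70, -0.59, -0.24 and -0.70. At 180 min HXK2, PDC1 and PDC5 turned to -0.0089, -0.054 and -0.037 against control, and HXK2 and PDC1 to -0.027 and -0.035 against 1 mg/L. Between times the effect of 5 mg/L turned to 0.087 for GLK1 and 0.071 for TDH1.

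Leaving out 1 array gave 0 to 1 lower at 5 mg/L at 180 min, 0 to 1 higher at 1 mg/L at 120 min, 1 to 3 higher over time at 1 mg/L, and GLK1/HXK2 from 0.29 to 0.36, and at 1 mg/L HXK1/HXK2 from 0.20 to 0.25, HXK1/GLK1 from 0.10 to 0.14 and ENO1/ENO2 from 0.054 to 0.10. The causes of these moves were not tested.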
